A study of Mus musculus with 4 samples.

Results

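The genes described here encode the proteins of the cytosolic ribosome, with the muscle protein RPL3L among them. They were chosen by name: symbols that start with Rpl, Rps or Rplp followed by a number, with at least 2 annotated exons, leaving out the Rps6k kinases and pseudogenes. The rule gave 84 of the 43346 genes in the deposited table, 52 with large-subunit names and 32 with small-subunit names. Of 101 names that matched, 10 Rps6k kinases and 7 genes listed with fewer than 2 exons (Rpl10l, Rps12l1, Rps12l2, Rps27rt, Rps3a2, Rps3a3 and Rps4l) were left out. Rps19bp1, a protein that binds a ribosomal protein, and Rpl37rt, a retrotransposed copy, match the name rule without being standard ribosome subunits. Hearts came from PRMT1-cKO mice, in which PRMT1 was deleted in cardiomyocytes, and from WT mice, 2 hearts of each; all mice were C57BL/6 and 6 weeks old. PRMT1 is an enzyme that methylates arginine residues of proteins. The series asked how the mRNA profile and splicing differ between control and PRMT1-cKO hearts. RNA was total RNA depleted of ribosomal RNA, and the labels do not name the Cre driver or say whether hearts were pooled.

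The ribosome reads mRNA into protein and is built from ribosomal RNA and a large set of proteins that are made in matched amounts. The mRNAs of most of these proteins begin with an oligopyrimidine stretch, through which growth signalling controls their translation, and many of their introns hold small nucleolar RNAs. RPL3 sits close to the peptidyl transferase centre of the large subunit, and RPL3L takes its place in ribosomes of heart and skeletal muscle of adult mammals, where Rpl3 is low.

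The upstream sequence of 4 of the genes is shown as examples: Rpl3l fell, while Rps7, Rpl37 and Rpl4 rose. The sequences come from RefSeq on GRCm38.p6 and read 5′ to 3′ on the strand of the gene. They end at the base before the RefSeq start, which for Rpl3l lies past the gene start of 24727820 in the deposited table. For Rpl3l all 250 bases are given, with CANNTG (the E-box, a site for muscle helix-loop-helix factors) in capitals; for the others the last 100 bases are given, with CCGGAA or its reverse complement (the core of Ets and GABP sites) in capitals.
Rpl3l chr17:24727576-24727825 plus strand: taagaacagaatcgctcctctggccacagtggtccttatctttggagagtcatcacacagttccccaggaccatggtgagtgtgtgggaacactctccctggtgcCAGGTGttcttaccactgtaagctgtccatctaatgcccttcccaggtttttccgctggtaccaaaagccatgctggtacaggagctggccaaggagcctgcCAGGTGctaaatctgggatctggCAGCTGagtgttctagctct
Rps7 chr12:28635954-28636053 minus strand: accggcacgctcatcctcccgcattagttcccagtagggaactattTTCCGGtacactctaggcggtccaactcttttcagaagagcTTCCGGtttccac
Rpl37 chr15:5116513-5116612 plus strand: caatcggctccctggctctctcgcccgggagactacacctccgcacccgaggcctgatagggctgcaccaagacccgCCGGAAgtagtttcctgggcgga
Rpl4 chr9:64173287-64173386 plus strand: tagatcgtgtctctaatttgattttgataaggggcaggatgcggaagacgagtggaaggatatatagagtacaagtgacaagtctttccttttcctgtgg
Promoter windows of 250 bases were found for 64 of the 84 genes, as 76 windows. CCGGAA on either strand stood in 34.2% of these windows and in 12.03% of all 32851 windows. ATGGCG, a YY1 core, stood in 14.5% and 5.73%. CANNTG stood in 47.4% and 66.2%, TATAAA in 5.26% and 12.4%, and TATTTATA, an MEF2 core, in 1.32% and 1.56%. Both Rpl3l windows held CANNTG and neither held CCGGAA or ATGGCG. The Rpl3l window that is not shown, chr17:24732435-24732684, lies inside the gene. Of the 10 windows of 9 genes that rose, 4 held CCGGAA. Within the last 100 bases, only Rps7 and Rpl37 of these 9 genes held it. The sequences shown are thus not typical of the genes that rose. These matches describe letters and not bound sites.

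Reads were counted per gene in 2 ways. Gene reads hold exon reads and intron reads. Exon reads are almost only reads across an exon junction: 29 of 2605955 were not. How reads inside an exon were counted is not stated. Libraries held 18291730 and 18674587 gene reads in PRMT1-cKO hearts and 25509854 and 21701967 in WT hearts. Exon reads numbered 764806 and 671361 in PRMT1-cKO hearts and 624897 and 544891 in WT hearts. They were 4.18 and 3.60% of gene reads in PRMT1-cKO hearts, against 2.45 and 2.51% in WT hearts. The divisor holds all gene reads, also those of genes listed with no exon, mt-Rnr2 among them. Reads of such genes count as intron reads and cannot be exon reads. The exon share over genes with exons alone is not given here. The mitochondrial ribosomal RNA mt-Rnr2 took 52.8 and 51.2% of gene reads in PRMT1-cKO hearts and 64.9 and 65.8% in WT hearts. Values below are in CPM, the usual scaling of reads to the library total, taken over the same kind of read and adjusted by TMM (trimmed mean of M-values, an edgeR scaling for RNA composition). Prmt1 had no exon read in any heart. Its gene reads were 33 and 44 in PRMT1-cKO hearts against 33 and 18 in WT hearts (adjusted p = 0.394, edgeR), so the labels were not checked by the deleted gene.

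Only part of the 84 genes could be followed in spliced reads. Exon reads were fewer in genes with more annotated exons: the median sum over 4 hearts was 483.5 reads for genes with 2 to 6 exons, 15 for 7 to 13 exons and 13 for 14 or more. Spearman's rho between the 2 counts was -0.30 over the 84 genes, which share the same 4 libraries. No exon read was seen for 12 genes (Rpl17, Rpl24, Rpl27a, Rpl28, Rpl30, Rpl37rt, Rpl39l, Rpl7, Rps16, Rps2, Rps27 and Rps6), and Rpl24 had no read at all. In exon reads 36 genes passed the filter on low counts and 48 were not tested. Pseudogenes, near-identical copies and overlapping genes (26 of the 84 overlap another protein-coding or long noncoding gene) may share reads with the members. Whether counting used strand is not stated.

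**Figure D1:**
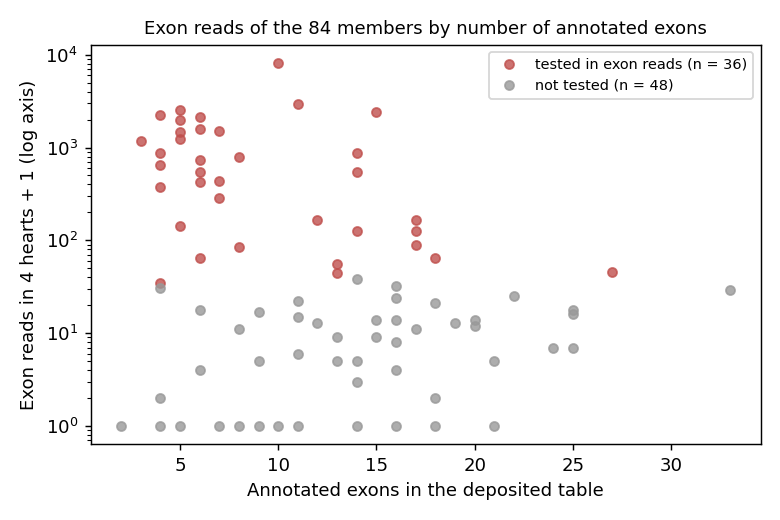
Exon reads summed over 4 hearts (log axis, 1 read added) against the number of annotated exons, 1 point per gene; 36 tested genes in red, 48 untested in grey. Genes with few annotated exons reach the highest counts, and 12 genes lie at 0 reads.

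In exon reads, 13 of the 36 tested genes rose in PRMT1-cKO hearts, 1 fell and 22 did not pass the test (quasi-likelihood test of edgeR, calls at a Benjamini-Hochberg adjusted p under 0.05). Of all 4756 genes tested, 36.2% were called. The share of the 36 that rose was 36.1%, against a background of 17.6%; 2.78% fell, against a background of 18.6%. The median log2 change was 0.39, against 0.00 over all tested genes. Both PRMT1-cKO values lay above both WT values for 25 genes, or 69.4%, against 33.9% of all genes, and below for 3 (Rpl3l, Rpl7l1 and Rps29), or 8.33%, against 34.2%. Summed over the 84 genes, CPM were 16585 and 15954 in PRMT1-cKO hearts and 12015 and 12534 in WT hearts. Together they took 1.65 and 1.56% of exon reads in PRMT1-cKO hearts and 1.22 and 1.27% in WT hearts.

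Both subunits were represented. Of 20 tested genes with large-subunit names, 7 rose and 1 fell, with a median log2 change of 0.44. Of 16 with small-subunit names, Rps19bp1 among them, 6 rose and none fell, with a median of 0.32. The genes that did not pass the test ranged from -0.45 to 0.94, and 16 of the 22 were positive. Rpl29, a large-subunit gene, had a change of 0.94 ± 0.44 (SE) and did not pass (adjusted p = 0.107, edgeR).

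**Figure D2:**
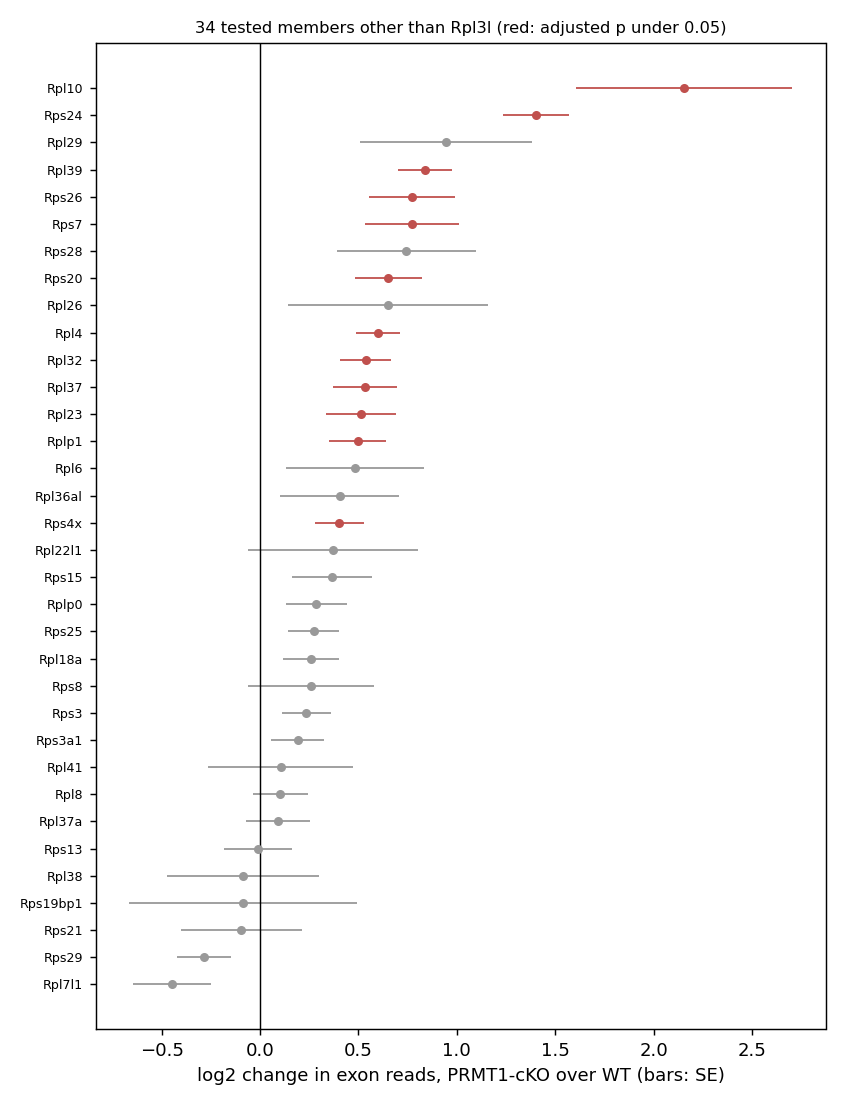
log2 change in exon reads, PRMT1-cKO over WT, with SE as bars, for 34 tested genes other than Rpl3l; red marks adjusted p under 0.05. Points run from Rpl10 at 2.16 down to Rpl7l1 at -0.45, and 12 are red.

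Marker genes of several cell types also moved with genotype, beside a background of 17.6% of all genes higher and 18.6% lower in exon reads. In exon reads the summed CPM of 12 cardiomyocyte markers was 45517 and 40551 in PRMT1-cKO hearts, against 80999 and 81921 in WT hearts. Of the 12, 8 were lower and 2 higher. Myh7, 1 of those higher, had 185 and 136 exon reads in PRMT1-cKO hearts, against 1 and 4 in WT hearts. Its gene reads fell, with 614 and 513 in PRMT1-cKO hearts, against 1759 and 1402 in WT hearts (adjusted p = 3.29e-05, edgeR). Fibroblast markers summed to 20909 and 13697 CPM in PRMT1-cKO hearts, against 4036 and 5242 in WT hearts, with 7 of 8 tested higher, and all 5 tested leukocyte markers of 11 rose (967 and 878 CPM against 236 and 370). Csf1r, of the leukocyte list, had no exon read. Skeletal muscle markers summed to 902 and 698 CPM in PRMT1-cKO hearts, against 7399 and 7997 in WT hearts. Most of each sum was Ckm, with 734 and 566 CPM in PRMT1-cKO hearts and 7089 and 7496 in WT hearts. Myh1, Myh2, Myh4, Tnnt3 and Tnnc2 were at 0 exon reads, so the sum does not measure skeletal muscle content. Of 6 endothelial markers tested 1 rose and 1 fell, or 16.7% each, near the background. Their sums were 1254 and 1351 CPM in PRMT1-cKO hearts, against 1828 and 2053 in WT hearts. Most of the difference lay in Kdr, the 1 that fell. Kdr held 296 and 280 CPM in PRMT1-cKO hearts, and 858 and 918 in WT hearts. Emcn was the 1 that rose, with 97.5 and 62.4 CPM in PRMT1-cKO hearts, against 39.4 and 49.0 in WT hearts. Of 8 mural markers 4 fell (sums of 2295 and 2326 CPM in PRMT1-cKO hearts, against 2978 and 3463 in WT hearts). Brown fat markers summed to 194 and 230 CPM in PRMT1-cKO hearts, against 1532 and 1561 in WT hearts. Cox8b alone held 132 and 125 CPM of that sum in PRMT1-cKO hearts, and 1385 and 1384 in WT hearts. The sum thus mainly follows 1 gene and does not measure brown fat content. Of 6 listed, 3 were tested and 2 fell, Cox8b and Ucp1. Red cell markers summed to 94.8 and 102 CPM in PRMT1-cKO hearts, against 26.8 and 16.3 in WT hearts. Of 7 listed, 2 were tested and 1, Alas2, rose. Alas2 held 51.4 and 83.7 CPM of the sum in PRMT1-cKO hearts, and 22.0 and 0 in WT hearts. Hba-a1, Hba-a2 and Hbb-bt had no exon read, so the sum does not measure red cell content. The part of these shifts in the changes of Rpl3l and the other genes was not tested. In whole hearts, fewer cells of a type and less RNA per cell cannot be told apart.

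Rpl3l (ENSMUSG00000002500, GRCm38 chromosome 17, 24727820 to 24736143, plus strand, 13 exons) had 0 and 0 exon reads in PRMT1-cKO hearts, against 16 and 28 in WT hearts. Both PRMT1-cKO hearts held no junction read, and both WT hearts held some. In CPM the WT hearts averaged 38.0 ± 18.1 (SD, n = 2), and Rpl3l fell (adjusted p = 6.95e-05, edgeR). With the floor of 3 reads per library in PRMT1-cKO hearts, it was at least 8.92-fold lower; the floor covers counting error only.

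Gene reads of Rpl3l were 0 and 7 in PRMT1-cKO hearts, against 198 and 137 in WT hearts, so the groups did not overlap. In CPM they averaged 0.146 ± 0.207 in PRMT1-cKO hearts and 8.38 ± 0.536 in WT hearts (SD, n = 2 each). The log2 change was -5.69 ± 0.44 (SE), a 51.5-fold fall (adjusted p = 2.74e-08, edgeR). Intron reads fell too, by 5.47 ± 0.42 on the log2 scale (adjusted p = 7.23e-11, edgeR). By size of log2 change, Rpl3l ranked 5 among the 1553 genes that fell in gene reads. No other gene of the protein-coding and long noncoding types looked for overlaps it, and it stayed lower without each heart in turn. The size of the fall rests on the 7 reads of PRMT1-cKO replicate 2: without PRMT1-cKO replicate 1 the log2 change was -4.85, and without replicate 2 the PRMT1-cKO group is at 0 reads.

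Rpl3 (ENSMUSG00000060036, chromosome 15, 80077794 to 80091868, minus strand, 21 exons) had 2 and 1 exon reads in PRMT1-cKO hearts, against 1 and 0 in WT hearts, too few to test. Its gene reads were 286 and 305 in PRMT1-cKO hearts, against 134 and 159 in WT hearts. Both PRMT1-cKO hearts lay above both WT hearts. CPM averaged 13.4 ± 0.904 in PRMT1-cKO hearts and 7.61 ± 2.37 in WT hearts (SD, n = 2 each), a 1.77-fold rise (log2 0.83 ± 0.22 SE, adjusted p = 0.00978, edgeR). Without WT replicate 1 the call was lost (adjusted p = 0.388, edgeR). Nearly all of these reads were counted as intron reads, so the value does not measure spliced Rpl3 mRNA. Inside Rpl3 lie 3 small nucleolar RNAs, and the gene overlaps Syngr1.

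**Figure D3:**
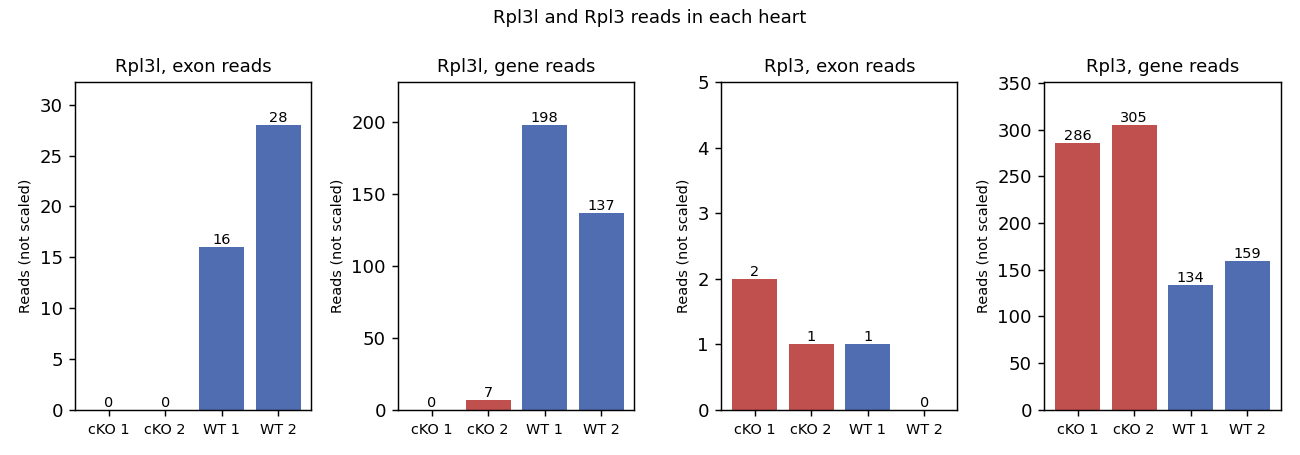
Reads, not scaled for depth, of Rpl3l and Rpl3 in each heart, PRMT1-cKO in red and WT in blue, 1 bar per heart. Rpl3l had 0 and 7 gene reads in PRMT1-cKO hearts and 198 and 137 in WT hearts, while Rpl3 had 286 and 305, against 134 and 159.

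Apart from the count added to avoid 0, the log2 ratio of Rpl3l to Rpl3 does not depend on library size. In exon reads, with 0.5 added to each count, it was -2.32 and -1.58 in PRMT1-cKO hearts, against 3.46 and 5.83 in WT hearts. The 2 groups did not overlap, and the difference was -6.60. An exact permutation test, two-sided, gave p = 0.333, the smallest that 2 against 2 hearts can give. In gene reads the ratio was -9.16 and -5.35 in PRMT1-cKO hearts, against 0.56 and -0.21 in WT hearts, a difference of -7.43 (exact permutation p = 0.333, again the smallest possible). Both ratios lean on the added 0.5: in exon reads Rpl3l was at 0 in both PRMT1-cKO hearts and Rpl3 had at most 2 reads in any heart, and the gene-read value of -9.16 comes from 0 Rpl3l reads. With 1 added to each count, the exon-read difference was -5.27.

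Other ribosomal proteins also have a paralog. Of the 6 paralog genes among the members, 4 were tested in exon reads, and Rpl3l was the 1 that passed. Rpl22l1, the paralog of Rpl22, had 30.3 and 24.3 CPM of exon reads in PRMT1-cKO hearts, against 17.3 and 25.4 in WT hearts (log2 0.37 ± 0.43 SE, adjusted p = 0.540, edgeR). Rpl22 had 4 and 2 exon reads in PRMT1-cKO hearts, against 6 and 1 in WT hearts, too few to test, and its gene reads changed by -0.11 ± 0.35 on the log2 scale (SE, adjusted p = 0.869, edgeR). Rpl36al, the paralog of Rpl36a, had 59.3 and 63.9 CPM in PRMT1-cKO hearts, against 44.1 and 49.0 in WT hearts (adjusted p = 0.325, edgeR). Rpl36a had 1 and 1 exon reads in PRMT1-cKO hearts and 5 and 1 in WT hearts. Rpl7l1, the paralog of Rpl7, had 129 and 160 CPM in PRMT1-cKO hearts, against 214 and 178 in WT hearts, and did not pass (log2 -0.45 ± 0.20 SE, adjusted p = 0.0928, edgeR), although it passed without PRMT1-cKO replicate 2. Rpl39l, Rps27l and Rpl7 were not tested, and Rps27 had no exon read.

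Of the large-subunit genes that rose, Rpl10 had the largest log2 change and the fewest reads. RPL10 joins the large subunit late in its maturation. Its exon reads were 18 and 20 in PRMT1-cKO hearts, against 4 and 3 in WT hearts, or 23.7 and 30.4 CPM against 6.30 and 5.44 CPM. The groups did not overlap. It rose 4.46-fold (log2 2.16 ± 0.55 SE, adjusted p = 0.00596, edgeR), a call that was lost without PRMT1-cKO replicate 2 (0.0820) and with DESeq2 (0.0710).

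Rpl39, whose product lines the peptide exit tunnel (chromosome X, 37082520 to 37085402, minus strand), had 719 and 742 CPM in PRMT1-cKO hearts, against 414 and 403 CPM in WT hearts. Replicates lay close together and the groups were apart. It rose 1.79-fold (log2 0.84 ± 0.14 SE, adjusted p = 1.81e-04, edgeR), with 731 ± 16.2 CPM in PRMT1-cKO hearts and 408 ± 8.11 in WT hearts (SD, n = 2 each). In gene reads it rose by 0.93 ± 0.20 (SE, adjusted p = 0.00211, edgeR), a call lost without WT replicate 1 (0.101).

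Rpl4, a large-subunit gene that hosts 5 small nucleolar RNAs (chromosome 9, 64173387 to 64178562, plus strand), had 3847 and 3574 CPM in PRMT1-cKO hearts, against 2391 and 2515 CPM in WT hearts. Each PRMT1-cKO heart exceeded each WT heart. The rise was 1.51-fold (log2 0.60 ± 0.11 SE, adjusted p = 5.89e-04, edgeR). Gene reads gave the same log2 change of 0.60 with a wider error (SE 0.27) and did not pass (adjusted p = 0.130, edgeR). Rpl32, Rpl37 and Rpl23 rose by 1.45-fold, 1.45-fold and 1.43-fold, and Rplp1, which forms part of the stalk that recruits elongation factors, by 1.41-fold. Rpl5, which carries 5S ribosomal RNA to the ribosome, had 1 and 0 exon reads in PRMT1-cKO hearts and none in WT hearts. Its gene reads of 186 and 196 in PRMT1-cKO hearts, against 141 and 82 in WT hearts, rose by 0.64 ± 0.21 on the log2 scale (SE, adjusted p = 0.0357, edgeR).

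Rps24, a small-subunit gene known for alternative splicing near its end (chromosome 14, 24490681 to 24496146, plus strand), gave the largest rise among genes with over 100 exon reads in the 2 PRMT1-cKO hearts. It had 308 and 254 exon reads in PRMT1-cKO hearts, against 100 and 78 in WT hearts, or 406 and 386 CPM against 157 and 141. The groups were far apart and the replicates close. CPM averaged 396 ± 13.7 in PRMT1-cKO hearts and 149 ± 11.3 in WT hearts (SD, n = 2 each), a 2.64-fold rise (log2 1.40 ± 0.17 SE, adjusted p = 8.04e-06, edgeR). Its intron reads changed by 0.13 ± 0.20 (SE, adjusted p = 0.715, edgeR) and its gene reads by 0.70 ± 0.20 (SE, adjusted p = 0.0160, edgeR). The exon change exceeded the intron change by 1.39 on the log2 scale, but the test of that difference gave an adjusted p of 0.0941 (edgeR, Simes), and none of 25 members tested passed it, against a background of 3.88% of all 4196 genes.

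Other small-subunit genes rose by smaller amounts. Rps7 had 142 and 129 CPM in PRMT1-cKO hearts, against 67.7 and 92.5 CPM in WT hearts (log2 0.77 ± 0.24 SE, adjusted p = 0.0186, edgeR). Rps26 had 191 and 161 CPM in PRMT1-cKO hearts, against 88.2 and 120 CPM in WT hearts (log2 0.77 ± 0.22 SE, adjusted p = 0.0119, edgeR). In both genes every PRMT1-cKO value lay above every WT value. Rps20 had 398 and 319 CPM in PRMT1-cKO hearts, against 242 and 214 CPM in WT hearts (log2 0.65 ± 0.17 SE, adjusted p = 0.00719, edgeR). Rps4x, which is X-linked, rose 1.32-fold. Rps29 had 485 and 548 CPM in PRMT1-cKO hearts, against 642 and 615 CPM in WT hearts, without overlap, and did not pass (log2 -0.29 ± 0.14 SE, adjusted p = 0.124, edgeR).

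**Figure D4:**
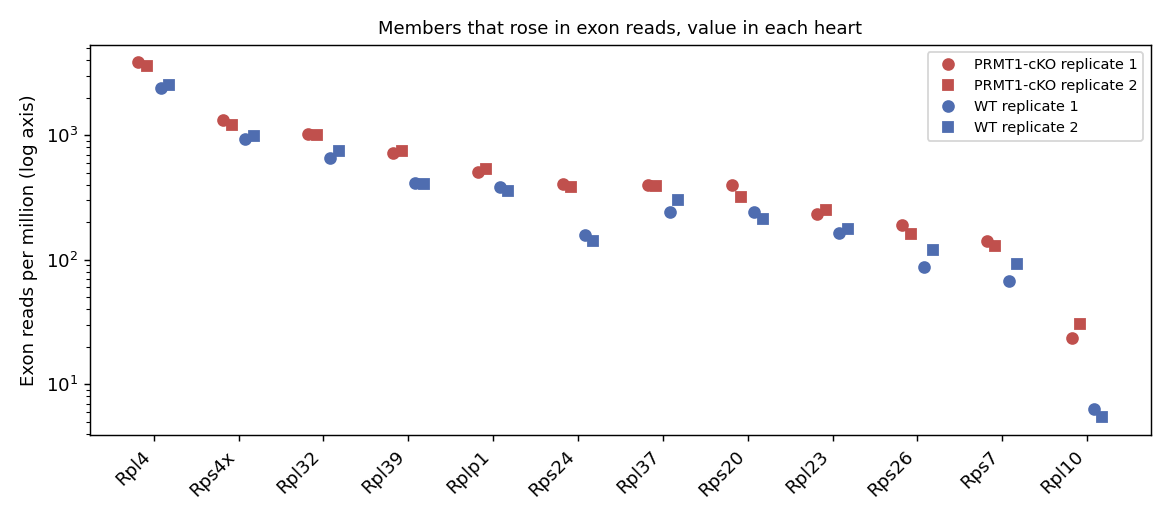
CPM of exon reads (log axis) of 12 genes that rose, 1 point per heart, PRMT1-cKO in red left of WT in blue; circles are replicate 1 and squares replicate 2. In each gene both red points lie above both blue points, with Rpl10 lowest in reads.

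The calls differed in how far they rested on single hearts. Rpl39, Rpl4, Rps24 and Rpl3l held in exon reads in all alternatives in which they could be tested. Without WT replicate 1, 8 calls were lost, among them Rpl23 (0.265), Rpl32 (0.156), Rpl37 (0.321), Rplp1 (0.0965), Rps26 (0.195), Rps4x (0.255) and Rps7 (0.239; adjusted p, edgeR). Without WT replicate 2, Rpl23 (0.141), Rplp1 (0.201), Rps20 (0.107) and Rps4x (0.138) were lost. DESeq2 did not call 7 of the 13 genes that rose.

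In gene reads, 66 of the 84 genes were tested and 18 were not. Of these, 7 rose (Rpl10, Rpl3, Rpl39, Rpl5, Rps20, Rps24 and Rps26), Rpl3l fell and 58 did not pass, of which 48 were positive. Of all 13869 genes tested, 22.7% were called. The 7 make 10.6% of the tested members, against a background of 11.5%; 1.52% fell, against 11.2%. The share that rose is near the background, and these calls rest on single hearts: without WT replicate 1 only the call of Rpl10 was kept among the 7, and without WT replicate 2 that call was lost (adjusted p = 0.0598, edgeR). Scaled to library totals without TMM, 45 of the 66 tested members rose and 1 fell. Of the 13869 genes tested, 4562 were then called higher and 666 lower. Higher calls thus made up 87.3% of all calls, against 50.8% with TMM. The median log2 change was 0.44, against 0.01 over all genes, and 38 genes, or 57.6%, had both PRMT1-cKO values above both WT values, against 30.4% of all genes. Both values lay below for 2 genes (Rpl3l and Rpl7l1), or 3.03%, against 29.0%. Of the 36 genes tested in both kinds of read, 31 had the same sign, 5 rose in both, 8 rose in exon reads but did not pass in gene reads, and none was called in opposite directions.

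Small nucleolar RNAs lie inside 29 of the 84 genes, 57 of them in all. Intron reads made up a median of 81.8% of the gene reads of these hosts and 65.7% in the 54 other genes with reads. In intron reads 54 genes were tested, with 3 higher (Rpl3, Rpl5 and Rps3a1, all hosts) and 1 lower (Rpl3l), against a background of 10.8% higher and 11.0% lower (21.8% in all) of 13217 genes. In exon reads 8 of 14 tested hosts rose (57.1%), with a median log2 change of 0.52, and 5 of 22 other genes (22.7%), with a median of 0.33, beside a background of 17.6%. The difference between hosts and other genes was not tested.

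Deposited RPKM values, in exon reads scaled to exon length and to total gene reads, give the order of the genes within a group. Rpl4 came first, with 100.4 ± 16.8 in PRMT1-cKO hearts and 43.4 ± 2.17 in WT hearts (SD, n = 2 each). Rpl32 and Rps25 held ranks 2 and 3 in both groups. Rps24 ranked 11 in PRMT1-cKO hearts and 19 in WT hearts, and Rpl39 ranked 10 and 14. Rpl3l was 1 of 15 genes listed at 0 in PRMT1-cKO hearts, and ranked 31 in WT hearts, where it averaged 0.584 ± 0.285 RPKM.

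The proteins of the mitochondrial ribosome, a separate particle that translates mitochondrial mRNAs, are encoded by 77 genes in the table. In exon reads 24 of 39 tested fell (61.5%, against a background of 18.6%) and none rose (background 17.6%), with a median log2 change of -0.95. The cytosolic genes had a median of 0.39. The difference between the medians was not tested.

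**Figure D5:**
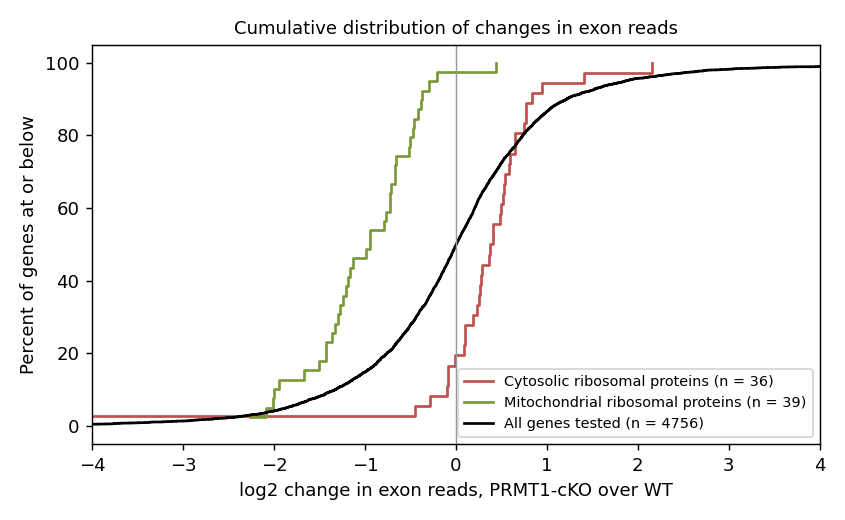
Cumulative percent of genes at or below each log2 change in exon reads, PRMT1-cKO over WT, for 36 cytosolic ribosomal protein genes, 39 mitochondrial ribosomal protein genes and all 4756 tested genes. The cytosolic curve lies to the right of the curve of all genes over most of its range and the mitochondrial curve to its left.

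Other genes of translation were counted in the same way, against the same backgrounds of 17.6% higher and 18.6% lower. Of 32 initiation factor genes tested in exon reads, 10 rose (31.2%) and 2 fell (6.25%), with a median log2 change of 0.24. Eif5a2 had 29 and 21 exon reads in PRMT1-cKO hearts, against 0 and 5 in WT hearts (adjusted p = 0.00310, edgeR). Eif4e, which binds the mRNA cap, fell by 1.09 ± 0.20 (SE, adjusted p = 5.13e-04, edgeR). Of 9 elongation and termination factor genes, 2 rose and 2 fell (22.2% each), shares near the background. Eef1a1, which delivers aminoacyl-tRNA, rose to 1603 and 1626 CPM in PRMT1-cKO hearts, against 442 and 471 CPM in WT hearts (log2 1.82 ± 0.13 SE, adjusted p = 2.89e-08, edgeR). Its muscle and neuron paralog Eef1a2 fell to 1100.0 and 1042 CPM in PRMT1-cKO hearts, against 1659 and 1714 CPM in WT hearts (adjusted p = 5.01e-04, edgeR).

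Of 44 ribosome biogenesis genes 6 rose (13.6%, below the background) and 2 fell (4.55%), with a median of 0.26. Among them Rrp12, which exports and matures pre-ribosomes, rose by 1.16 ± 0.18 (SE, adjusted p = 9.81e-05, edgeR). Nop14, a factor of small-subunit assembly, rose to 163 and 183 CPM in PRMT1-cKO hearts, against 77.1 and 96.1 CPM in WT hearts (adjusted p = 0.00198, edgeR). Polr1a, the largest subunit of RNA polymerase I, was the 1 gene of 4 tested in its list to pass, and fell by 0.56 ± 0.15 (SE, adjusted p = 0.0100, edgeR). Rictor, of mTOR complex 2, was the 1 gene to pass among 5 growth signalling genes, and rose by 0.53 ± 0.16 (SE, adjusted p = 0.0166, edgeR). Rpsa, a ribosomal gene outside the name rule, did not pass (adjusted p = 0.457, edgeR).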

How the data were processed

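Total RNA of 4 hearts, depleted of ribosomal RNA, was made into libraries with the SOLiD total RNA-Seq kit, per the labels' protocols. The genome build GRCm38 comes from the submitters' processing notes, and neither labels nor headers name the aligner, the counter or the use of strand. The deposited values are counts of gene reads, exon reads and intron reads and RPKM values, per the file headers; gene reads equal exon plus intron reads in all 43346 genes. RPKM values made by the authors were used only for order within a group and for 1 alternative of the ratio. Replicates are separate libraries of a group; as the labels do not say that hearts are unrelated or separately processed, p-values measure the spread between these libraries.

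Tests on the counts ran in R 4.3.3 with the quasi-likelihood F-test of edgeR 4.0.16, two-sided, genotype as the term. Genes passed filterByExpr (at least 10 reads, total 15), scaling was by TMM, and calls took a Benjamini-Hochberg adjusted p under 0.05 over all genes tested. SE is log2 change over root F. Exon against intron reads were tested with diffSpliceDGE (Simes). The script was tested on simulated data. CPM divide by TMM-scaled totals. The floor of 3 reads is 3.95 to 5.44 CPM of exon reads and covers counting error only. Alternatives were DESeq2 1.42.0, other filters and scalings, each heart left out, and replicate blocks. Named were Rpl3l, Rpl3, paralog pairs, members past the threshold, and up to 3 genes per other list; a few genes are counted but not reported by name here. The members and lists were chosen with earlier results of these data known. Overlapping genes and small nucleolar RNAs come from GENCODE M21, promoters from RefSeq.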

Additional observations from a re-analysis of the deposited data

How the results depend on the processing

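With 2 hearts a group, leave-one-out fits leave 1 heart whose spread is assumed to be like that of the other group. The number of genes that rose in exon reads, 13, was 6 with DESeq2 and 5 to 13 when 1 heart was left out, lowest without WT replicate 1; the 1 that fell, Rpl3l, was 0 under the stricter filter, which drops it, and 1 to 2 when 1 heart was left out. The 7 that rose in gene reads were 4 with DESeq2, 1 to 22 when 1 heart was left out, and 45 with library totals without TMM, which moved the median of all genes to 0.53 and its share of higher calls to 87.3%, against 50.8%. The median log2 change of 0.44 in gene reads was 0.27 to 0.59 when 1 heart was left out and 0.96 without TMM, and that of 0.39 in exon reads was 0.29 to 0.48. The difference between groups in the log2 ratio of Rpl3l to Rpl3, -6.60, was -1.15 with RPKM plus 0.5, and -7.79 to -5.41 when 1 heart was left out. Gene-read signs reversed without TMM for Rpl22 (0.40) and Rpl7l1 (0.15), without WT replicate 1 for Rpl23 (range over hearts left out -0.17 to 0.42) and Rps27 (-0.061 to 0.84), and without PRMT1-cKO replicate 1 for Rpl23 (-0.11); none of these had passed the test in gene reads. The cause was not tested. Over all genes, exon-read calls were 1724 and 1096 with DESeq2; gene-read calls were 3154, and 2201 with DESeq2, 1815 without WT replicate 1 and 5228 without TMM. The change of Rpl3 in exon reads could not be tested for want of reads. Numbers 1 and 2 are not said to pair hearts, and deviations of same-numbered hearts correlated by -0.124 in gene reads and -0.00910 in exon reads; with the replicate block 12 members rose in exon reads and 6 in gene reads, and the Rpl23 exon-read call (0.0507) and the Rpl5 and Rps24 gene-read calls (0.0565 and 0.0579) were lost. The crossed pairing gave 13 and 19. Over all genes, 757 rose in exon reads and 1429 in gene reads with the replicate block. With the crossed pairing these counts were 886 and 2176, against 838 and 1601 in the main fit. With 0 to few exon reads in many members, their changes were not detectable at this depth; why these reads are few was not tested.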

Other observations

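Some members had many reads counted as intron reads and no exon read. Rpl17, a large-subunit gene that hosts 3 small nucleolar RNAs, had 801 and 865 gene reads in PRMT1-cKO hearts, against 420 and 596 in WT hearts, with no exon read in any heart (log2 0.50 ± 0.25 SE, adjusted p = 0.165, edgeR). Rps16, a small-subunit gene that hosts 1, had 404 and 507 gene reads in PRMT1-cKO hearts, against 62 and 383 in WT hearts, so that WT replicate 1 lay far below the other hearts. Both genes were named after their values were seen.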
